A study of Homo sapiens with 2 samples.

Results

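The antioxidant pathway of the transcription factor NRF2 was described here through 10 of its genes, among 19970 protein-coding genes on chromosomes 1 to 22 and X. They are NFE2L2, which encodes NRF2, its regulators KEAP1 and BACH1, and 7 genes of the antioxidant response, HMOX1, NQO1, GCLC, GCLM, SLC7A11, TXNRD1 and SRXN1. The genes were taken from a list of names. A JUNB peak was counted for a gene when its summit, the highest point of the peak, lay within 50 kb of the gene's RefSeq span on GRCh38. JUNB was profiled by CUT&RUN, which uses an antibody to bring a nuclease to the chromatin bound by a protein and sequences the fragments cut free. The cells were IMR-90, a cultured line of human lung fibroblasts. One culture condition had no treatment and the other had etoposide, a drug that traps topoisomerase II and so breaks DNA. The dose and the length of the treatment are not given in the labels. Each condition had 1 library, so differences have no replicate check, and no test of the treatment was made. No gene expression was measured, so the labelled cell type could not be set against marker levels.

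NRF2 is a basic leucine zipper factor that pairs with small MAF proteins and binds antioxidant response elements. In unstressed cells KEAP1 holds NRF2 and passes it to the CUL3 ubiquitin ligase for breakdown, and oxidants or electrophiles release it. BACH1 is a heme-sensitive repressor that occupies the same elements. JUNB is a subunit of AP-1, another basic leucine zipper dimer, whose site TGANTCA opens with the same letters as the response element core TGACNNNGC, so the letters of a single stretch can fit both.

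Near the 10 genes there were 32 untreated and 18 etoposide peaks. Of the 10 genes, 8 had an untreated peak, where the share over all protein-coding genes was 72.0%. In the etoposide library 7 did, against 62.6%, and 6 genes had a shared peak, meaning one that overlaps a peak of the other list by 1 bp or more, against 51.1%. These shares are near the background. The 6 genes with a shared peak were NFE2L2, BACH1, GCLC, GCLM, TXNRD1 and SLC7A11. HMOX1 had a different weak peak in each list, NQO1 had untreated peaks only, as 13.5% of all genes did, and KEAP1 and SRXN1 had none, where 23.9% of all genes had none.

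**Figure D1:**
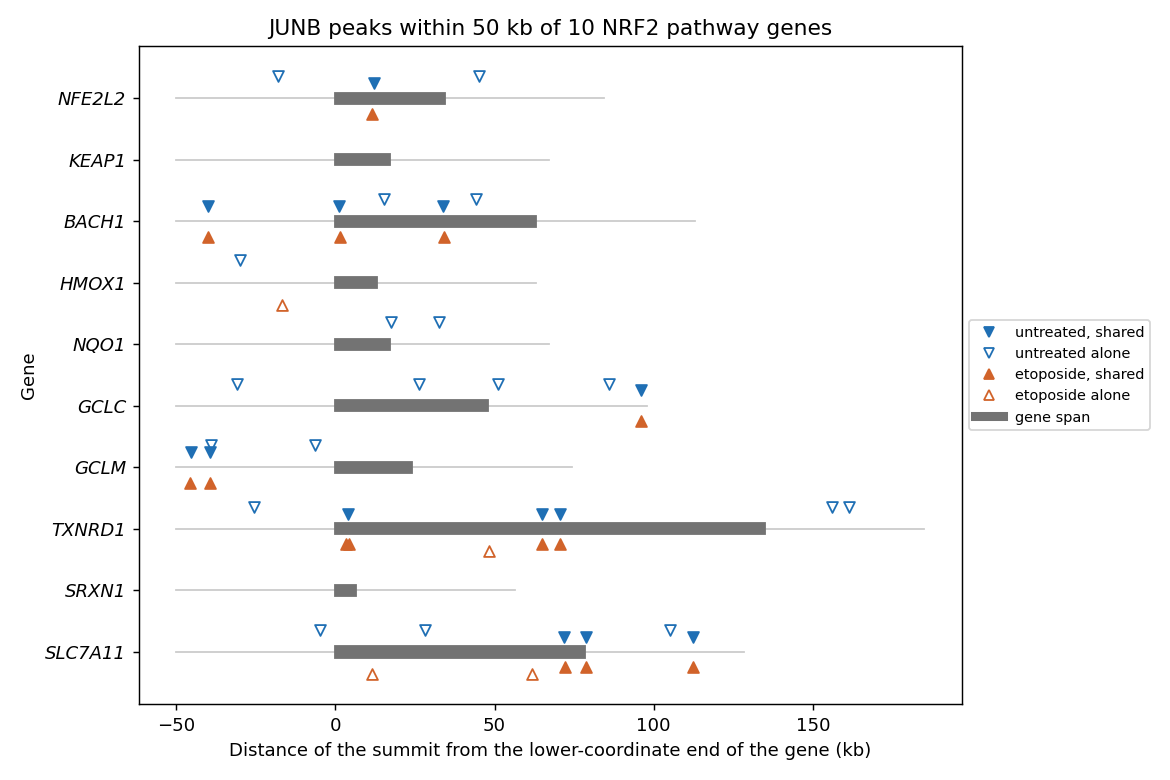
Position of each JUNB summit within 50 kb of the 10 genes, in kb from the lower-coordinate end of the gene, with untreated peaks above and etoposide peaks below each line. Filled marks are shared peaks and open marks are peaks of 1 list alone; TXNRD1 and SLC7A11 carried the most peaks, and KEAP1 and SRXN1 had none.

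The untreated list held 32550 peaks on the chromosomes used and the etoposide list 25739. Median summit heights were 15 and 13 fragments, solved for each peak from its deposited values. Long genes have more room for peaks, so peak density was taken as well. The joined windows of the 10 genes covered 1.44 Mb and held 22.3 untreated summits per Mb (95% Poisson interval 15.2 to 31.5), where the windows of all protein-coding genes held 13.6. For etoposide the density was 12.5 per Mb (7.43 to 19.8) against 10.2. The intervals cover counting error only, and peaks that cluster within a gene are not independent of each other.

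Of the 32 untreated peaks near the 10 genes, 13 were shared, 40.6% (95% Wilson interval 25.5% to 57.7%), and of the 18 etoposide peaks 14 were, 77.8% (54.8% to 91.0%). Around all protein-coding genes the shared shares were 49.2% and 65.6%, inside those intervals. The other 19 untreated peaks had 6 to 25 summit fragments and a median of 12, which was also the median of all untreated peaks without a counterpart. Of the 19, 15 were at or below the median of the whole list, 15 fragments, and 3, near GCLC, GCLM and SLC7A11, were at or above its upper quartile of 21. The 4 etoposide peaks without a counterpart had 8 to 16 fragments. In the untreated list 7 of the 32 peaks were among the strongest 10% by -log10 q, and all 7 were shared. In the etoposide list 6 of the 18 were, and all 6 were shared. Among all peaks of that strength the shared share was 95.7% for untreated and 97.4% for etoposide, so this is ordinary for strong peaks.

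Promoter sequence from RefSeq (GRCh38.p14) was matched for 8 of the 10 genes in 13 windows, each the 250 bases before an annotated start. HMOX1 and SLC7A11 had no entry. Windows of 5 genes are shown in the direction of the gene, 4 of them with the matches described below and 1 because it lies wholly under a peak. The window of the first TXNRD1 start, with a match and no peak on it, is not shown. Capitals mark matches, on either strand, to the antioxidant response element core TGACNNNGC or to the AP-1 site TGANTCA. One is TXNRD1 at its internal start, partly under a shared peak (chr12:104286782-104287031, plus strand). Another is NQO1, wholly under an untreated peak and without a match in these 250 bases (chr16:69726561-69726810, minus strand). That peak runs past both ends of the window, and the sequence there was not searched. The others are KEAP1 at its inner start (chr19:10502772-10503021, minus strand) and GCLM (chr1:93909431-93909680, minus strand), both with response element cores and no peak, and BACH1 at its first start (chr21:29298672-29298921, plus strand), with an AP-1 site and no peak.
TXNRD1: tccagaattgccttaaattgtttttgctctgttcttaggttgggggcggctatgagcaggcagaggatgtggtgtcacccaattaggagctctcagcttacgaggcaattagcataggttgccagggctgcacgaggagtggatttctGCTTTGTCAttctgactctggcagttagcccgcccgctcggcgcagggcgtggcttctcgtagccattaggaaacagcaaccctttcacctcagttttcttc
NQO1: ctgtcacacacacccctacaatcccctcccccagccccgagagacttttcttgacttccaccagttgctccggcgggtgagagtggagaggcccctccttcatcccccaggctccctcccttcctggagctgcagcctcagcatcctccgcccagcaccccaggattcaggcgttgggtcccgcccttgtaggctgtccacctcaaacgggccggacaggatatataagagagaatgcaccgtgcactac
KEAP1: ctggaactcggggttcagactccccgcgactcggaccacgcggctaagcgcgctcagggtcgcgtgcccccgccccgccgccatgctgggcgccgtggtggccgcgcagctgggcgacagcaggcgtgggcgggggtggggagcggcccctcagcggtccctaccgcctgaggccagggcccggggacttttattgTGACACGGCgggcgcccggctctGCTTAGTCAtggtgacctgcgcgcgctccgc
GCLM: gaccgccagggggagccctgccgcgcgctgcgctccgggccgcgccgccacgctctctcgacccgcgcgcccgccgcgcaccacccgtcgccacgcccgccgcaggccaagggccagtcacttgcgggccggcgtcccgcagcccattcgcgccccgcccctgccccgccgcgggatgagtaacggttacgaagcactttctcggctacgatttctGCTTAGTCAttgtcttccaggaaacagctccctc
BACH1: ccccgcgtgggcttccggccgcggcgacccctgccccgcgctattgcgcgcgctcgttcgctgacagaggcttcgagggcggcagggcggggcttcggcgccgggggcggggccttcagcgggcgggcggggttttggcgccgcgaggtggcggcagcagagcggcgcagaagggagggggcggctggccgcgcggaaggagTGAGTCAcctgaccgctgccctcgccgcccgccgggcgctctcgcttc

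A response element core was present in 4 of the 13 windows, both windows of TXNRD1 and 1 each of KEAP1 and GCLM, where 11.2% of 22131 promoter windows of the same length held one. The KEAP1 window had 2 of them. The match GCTTAGTCA, which reads TGACTAAGC on the other strand, stood 26 bases upstream of the GCLM start and 23 bases upstream of the inner KEAP1 start, in the same letters. An AP-1 site was present in 1 of the 13 windows, at BACH1, where 5.35% of all windows held one. It was TGAGTCA, 42 bases upstream of the first BACH1 start, 1075 bp from the nearest untreated peak and 1343 bp from the nearest etoposide peak. The cyclic AMP response element TGACGTCA was in 0 of the 13 windows and in 2.02% of all. No member window held both an AP-1 site and a response element core, and 0.926% of all windows did. A match is a description of letters, not of binding. The sequence under the distal peaks was not used here.

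Few windows held a peak, among the 13 as among all. SLC7A11 has no window, so the shared place at its start is not in these counts. An untreated peak overlapped 2 of the 13 windows, NQO1 and the internal start of TXNRD1, where 9.46% of all windows had one. An etoposide peak overlapped 1 window, that of TXNRD1, against 2.63%, and peaks of both lists together were on 1.81% of all windows. Most of the JUNB peaks near the 10 genes lay away from the annotated starts. Within 10 kb of the gene span, 7 of the 10 genes had an untreated peak, where 49.6% of all genes did, and 4 had an etoposide peak, NFE2L2, BACH1, SLC7A11 and TXNRD1, against 38.9%.

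Among the regulators, NFE2L2 had a single shared place, inside the gene. The untreated peak at chr2:177242169-177242582 had 20 fragments at its summit and ranked 12861 in its list. The overlapping etoposide peak at chr2:177241793-177242190 had 11 fragments and ranked 22956, with its summit 478 bp away. The places touch at their edges only, and both are of middling or low rank. A pair of untreated peaks had no counterpart, 1 at 10.6 kb beyond the start of the gene with 12 fragments and 1 at 17.9 kb beyond its end with 15 fragments. The latter was nearer to HNRNPA3, an RNA-binding protein gene.

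KEAP1, the adaptor that marks NRF2 for breakdown, had no summit within 50 kb in either list. The closest untreated summit was 82.3 kb away, nearest to CDC37, and the closest etoposide summit was 241 kb away. Its window is gene-rich, with 4 other protein-coding genes. The nearer of its response element cores stood 98858 bp from the closest untreated peak and 257995 bp from the closest etoposide peak.

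BACH1, the repressor, had 5 untreated and 3 etoposide peaks, and all 3 etoposide peaks were shared. The strongest place lay 39.9 kb before the gene, inside the non-coding gene LINC00189, at chr21:29258859-29259185. It had 29 fragments in the untreated library (rank 2130) and 19 in the etoposide library (rank 3349), with summits 1 bp apart. A second shared place lay just inside the gene, 726 bp from an annotated start in the untreated list, at chr21:29299955-29300510 with 21 fragments. Its etoposide counterpart was one of the weakest peaks of that list, with 8 fragments and rank 25356 of 25739. The last shared place, at chr21:29332746-29333224, had 17 and 11 fragments. A further 2 peaks inside BACH1, with 8 and 16 fragments, were in the untreated list alone.

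HMOX1 encodes heme oxygenase 1, which breaks down heme and is repressed by BACH1. It had 1 untreated peak, 30.0 kb away at chr22:35350989-35351323 with 7 fragments, and 1 etoposide peak, 16.8 kb away at chr22:35364221-35364641 with 10 fragments. Both stood nearer to TOM1, an endosomal sorting gene, and they were different places. No peak of either list lay inside HMOX1 or within 10 kb of it.

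NQO1 encodes a quinone reductase and is a standard read-out of NRF2 activity. Its untreated peak at chr16:69726406-69726993 covered all 250 bases of the promoter window shown above, with the summit 309 bp upstream of the start and inside the divergent non-coding gene NQO1-DT. It had 12 fragments on a local background of 0.889 and ranked 18683 of 32550. The etoposide list had no peak within 105 kb of NQO1. An untreated peak on the promoter window with no etoposide peak there was seen for 7.65% of all windows, and at 12 fragments the untreated peak was below the median of its list, and an etoposide signal under the threshold of the caller would not be listed. A second untreated peak, 15.3 kb away with 8 fragments, was nearer to NOB1.

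The next genes supply glutathione. GCLC and GCLM encode the catalytic and modifier subunits of glutamate-cysteine ligase, the rate-limiting enzyme of glutathione synthesis, and SLC7A11 encodes the cystine importer of system xc-. GCLC had 5 untreated peaks and 1 etoposide peak, and no other protein-coding gene reached into its window. The shared place was strong but far, 48.2 kb beyond the start of the gene, at chr6:53592927-53593696 in the untreated list with 37 fragments (rank 1064) and at chr6:53593186-53593438 in the etoposide list with 26 fragments (rank 1436). It is just inside the 50 kb limit, and GCLC would have no etoposide peak with a limit of 45 kb. The untreated peak closest to the start, 3.24 kb upstream at chr6:53548247-53548491, had 25 fragments and no counterpart. It was the highest of the 19 untreated peaks without one.

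GCLM had 4 untreated and 2 etoposide peaks, and none of them was nearest to GCLM. The strongest place lay 39.4 kb beyond the end of the gene, inside BCAR3, a gene of integrin signalling, at chr1:93845682-93845951. It had 34 fragments in the untreated library (rank 2713) and 33 in the etoposide library, where it ranked 693 and was the strongest etoposide peak near any of the 10 genes. A second shared place in BCAR3 had 16 and 9 fragments. An untreated peak without a counterpart lay beside the strongest place, at chr1:93846088-93846335, with 24 fragments. The etoposide peak of that place, chr1:93845500-93845996, ended just short of it, so it counts as shared where a gap of up to 200 bp is allowed. Another untreated peak without a counterpart lay 6.40 kb from GCLM, inside DNTTIP2, with 14 fragments.

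SLC7A11 lies on the minus strand, so its start is at the higher coordinate. It had 6 untreated and 5 etoposide peaks, of which 3 in each list were shared. The strongest place was inside the gene near its start, at chr4:138235465-138236274, with 49 fragments in the untreated library (rank 494) and 30 in the etoposide library (rank 1197). The shared place at the start itself, chr4:138242576-138243107 in the untreated list, had 27 fragments with its summit 0.476 kb outside the gene, and its counterpart had 13 fragments at 0.346 kb. Another shared place, 34.04 kb upstream in the untreated list, had 26 and 24 fragments. Inside the gene 2 etoposide peaks had no counterpart, with 12 and 16 fragments, and these were 2 of the 4 such peaks near the 10 genes. The untreated peaks without a counterpart had 21, 9 and 13 fragments.

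The last genes serve the thioredoxin system. TXNRD1 encodes cytosolic thioredoxin reductase and SRXN1 encodes sulfiredoxin, which repairs overoxidised peroxiredoxins. TXNRD1 is the longest of the 10 genes, at 135 kb, and had 6 untreated and 5 etoposide peaks, with 3 shared untreated places inside the gene. The strongest lay 3.85 kb after the first start, at chr12:104219040-104220163, and its 64 fragments (rank 303 of 32550) were the most at any summit near the 10 genes. The etoposide list had 2 peaks within its bounds, with 32 fragments (rank 1724) and 19 fragments (rank 15284). The second, at chr12:104280494-104280832, also lay within the antisense gene TXNRD1-AS1 and had 38 and 25 fragments.

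The last shared place of TXNRD1 was at the internal start. The untreated peak at chr12:104286243-104286924 had 44 fragments (rank 1598) and the etoposide peak at chr12:104286253-104286840 had 31 (rank 1079). The summits were 679 and 669 bp upstream of that start and 10 bp apart. The peaks covered the first 143 and the first 59 bases of the TXNRD1 window shown above. The response element core in capitals, 94 bases upstream of the start, was outside both, 6 bp past the end of the untreated peak and 90 bp past that of the etoposide peak. A single etoposide peak inside the gene, with 8 fragments, had no counterpart, and 3 untreated peaks outside it had 9, 6 and 7. SRXN1, a gene of 6.59 kb, had no peak within 50 kb, and the closest summits were 117 kb away in the untreated list and 130 kb away in the etoposide list.

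**Figure D2:**
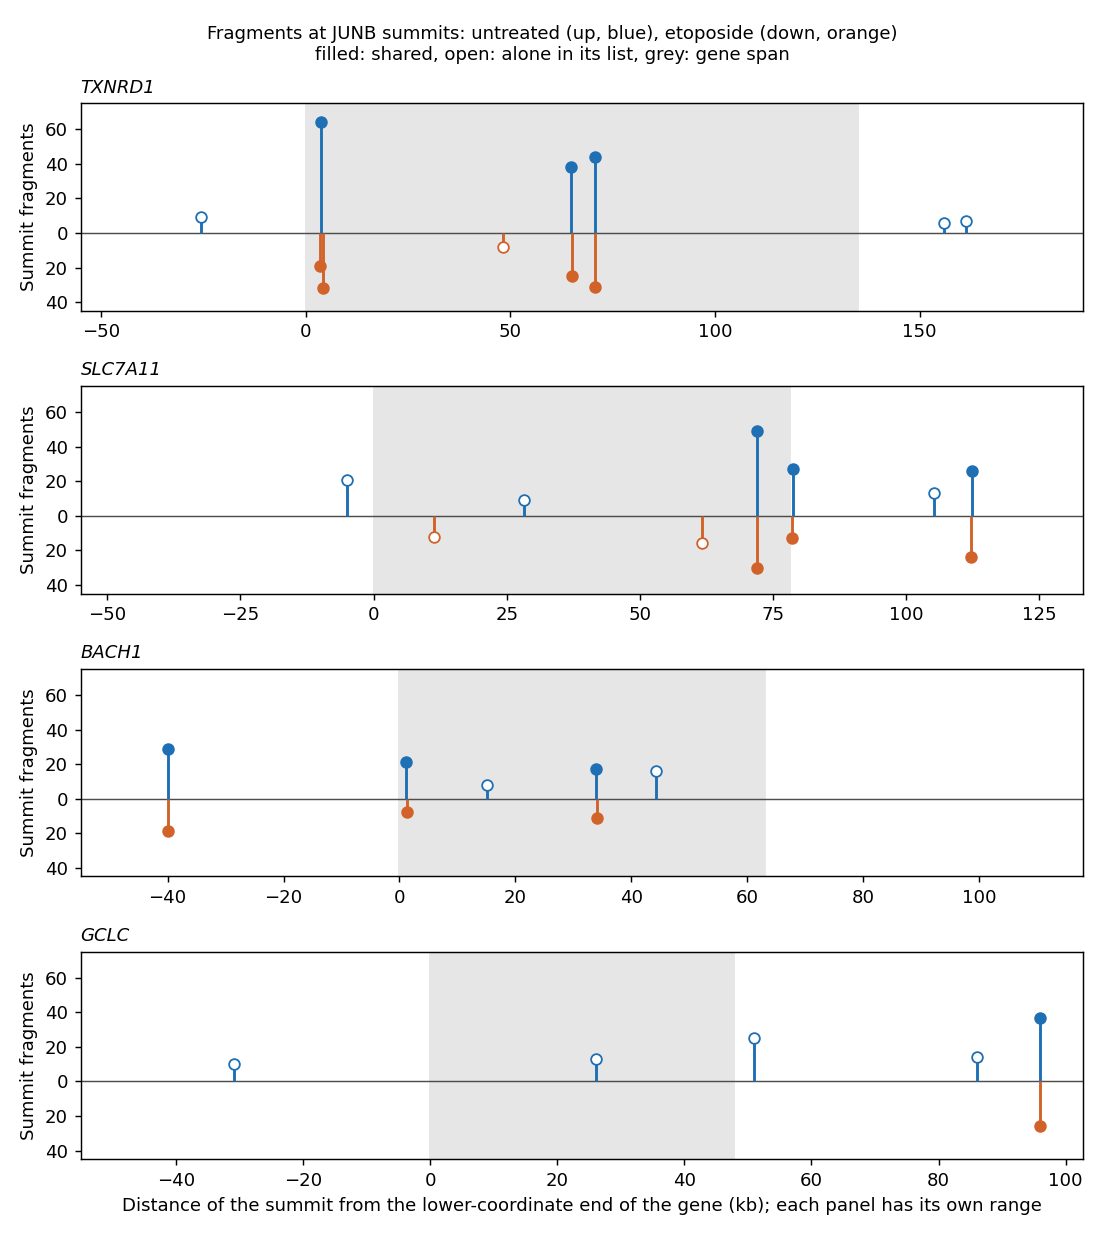
Fragments at each JUNB summit near TXNRD1, SLC7A11, BACH1 and GCLC, untreated upward and etoposide downward, against distance from the lower-coordinate end of the gene in kb (grey: gene span; filled: shared; open: alone in its list). The highest summits are shared places, up to 64 fragments at TXNRD1, and the open ones reach at most 25.

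At the 13 shared untreated peaks the etoposide library had fewer fragments at 13 of 13 places. These numbers were not scaled for sequencing depth, which is unknown here. The lowest local background solved for a peak also differed, at 0.4817 (untreated) and 0.3767 (etoposide). How far a difference between the libraries as a whole accounts for the lower etoposide numbers was not tested. Over all 16610 shared untreated peaks the etoposide number was below the untreated one at 73.4%, and the median ratio was 0.778 (quartiles 0.621 and 1). The ratio was lower among higher untreated peaks. Among the 10622 shared untreated peaks with 16 to 64 fragments, the range of the 13, it was below 1 at 86.7%, with a median of 0.700 (quartiles 0.567 and 0.852). The 13 places had a median of 0.647, with 9 below and 4 above 0.700, which is near this background. Ratios were lowest at the BACH1 start, 0.381, and the SLC7A11 start, 0.481, and highest at the BCAR3 place near GCLM, 0.971, and the distal SLC7A11 place, 0.923. Without allowance for the median ratio of 0.700, the 95% Poisson intervals were apart at 1 place only, the strongest of TXNRD1. It had 64 untreated fragments (49.3 to 81.7) and 32 etoposide fragments (21.9 to 45.2). There the untreated peak was set against the nearer of 2 etoposide peaks, with summits 344 bp apart.

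**Figure D3:**
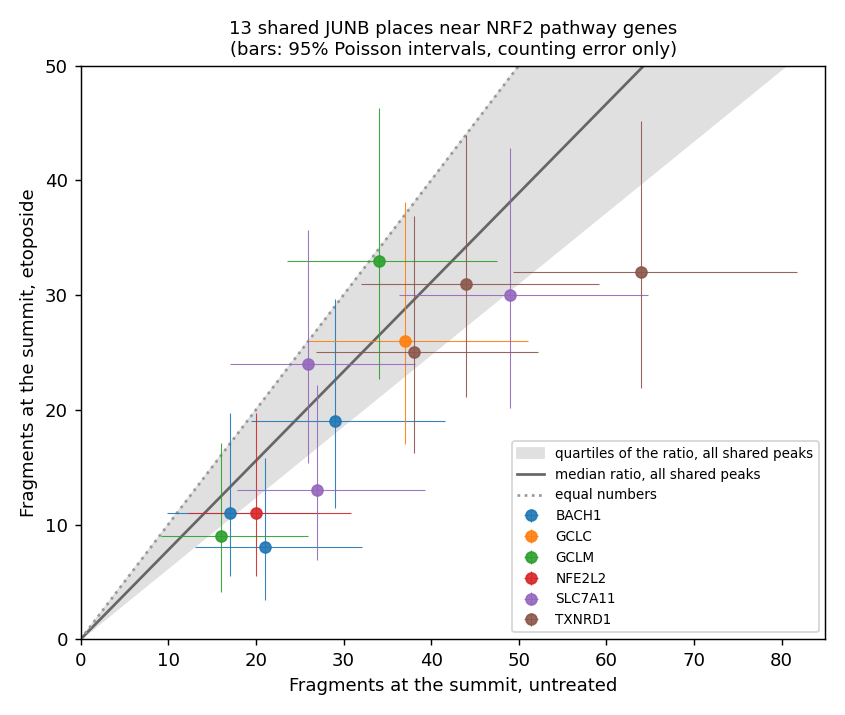
Fragments at the summit in the untreated (horizontal axis) and the etoposide library (vertical axis) at the 13 shared places, coloured by gene, with 95% Poisson intervals. The line and band give the median ratio 0.778 and the quartiles over shared untreated peaks of all heights. Among those in the fragment range of the 13 the median ratio was 0.700, which is not drawn. All 13 points lie below equal numbers, which are not scaled for sequencing depth.

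Wider lists of the pathway were counted in the same way. Of 12 partners and regulators of NRF2, 11 had an untreated peak, 9 an etoposide peak and 6 a shared peak, against 72.0%, 62.6% and 51.1% of all genes. Their strongest untreated peaks were near MAFF, a small MAF partner (49 fragments, rank 601, nearest to PLA2G6), inside BACH2, a repressor related to BACH1 (42 fragments), and inside CUL3, the ligase scaffold (23 fragments, rank 3562, no counterpart). NFE2, a relative of NRF2, and RBX1, a subunit of the CUL3 ligase, had an untreated peak only, a status seen for 13.5% of all genes. SQSTM1, which encodes the KEAP1-binding autophagy receptor p62, had none, and it was named after its values were seen.

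Of 26 other NRF2 targets, 24 had an untreated, 21 an etoposide and 19 a shared peak. These are 92.3%, 80.8% and 73.1%, against 72.0%, 62.6% and 51.1% of all genes, and the difference was not tested. Some of the 26 genes are neighbours that count the same peak, so they are not all separate places. The strongest untreated peaks were inside ABCC3, an efflux transporter (62 fragments, rank 157, and 31 in its strongest etoposide peak), inside GSR, glutathione reductase (54 fragments, rank 309, and 26), and near GSTM3, a glutathione transferase (34 fragments, rank 1187, and 25), where GSTM5 was nearer. ABCC3 and GSR each had their strongest peak in both lists within the gene. PRDX1, a peroxiredoxin, EPHX1, an epoxide hydrolase, and CBR1, a carbonyl reductase, had untreated peaks only, 3 of the 26, against 13.5% of all genes. TXN and TKT, named after their values were seen, had none.

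Of 19 other antioxidant enzymes and glutathione genes, 17 had an untreated, 18 an etoposide and 15 a shared peak. These are 89.5%, 94.7% and 78.9%, against 72.0%, 62.6% and 51.1% of all genes, and the difference was not tested. The strongest untreated peaks were near GLRX, a glutaredoxin (52 fragments, rank 1101, nearest to ELL2), TXN2, mitochondrial thioredoxin (40 fragments, 1.59 kb away), and GPX1, a glutathione peroxidase (28 fragments, 5.42 kb away). All 3 peaks were shared. PRDX4 had an etoposide peak only, with 6 fragments, and that status was seen for 4.05% of all genes. PRDX2, named after its values were seen, had no peak.

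**Figure D4:**
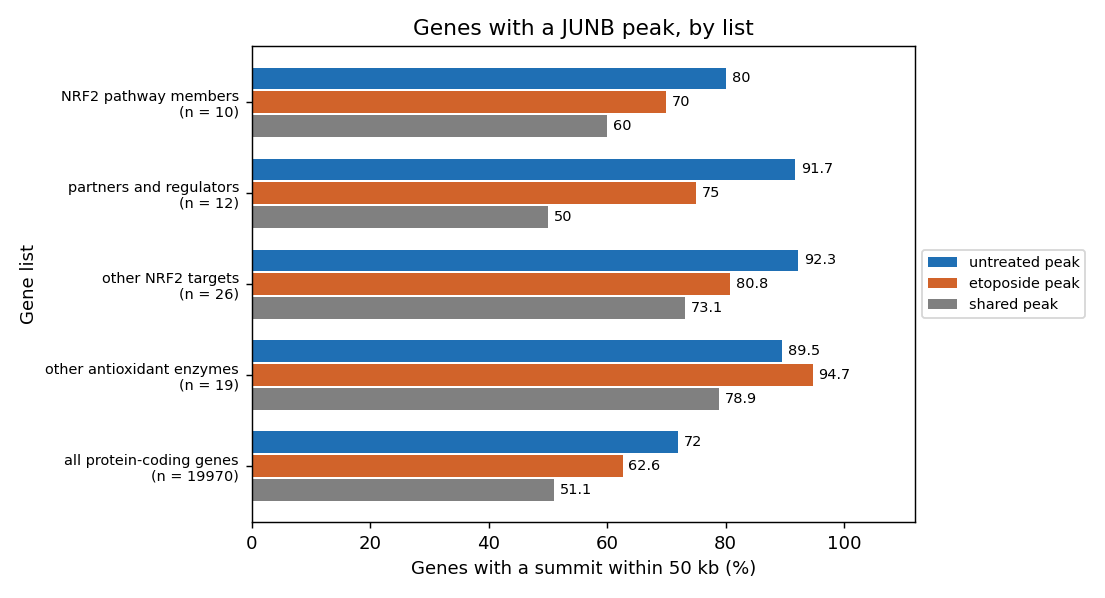
Percentage of genes with an untreated, an etoposide or a shared JUNB summit within 50 kb, for the 10 genes, 3 wider lists and all 19970 protein-coding genes. The 10 genes stand at 80.0%, 70.0% and 60.0%, and all protein-coding genes at 72.0%, 62.6% and 51.1%.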

How the data were processed

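JUNB CUT&RUN peak lists of 1 untreated and 1 etoposide-treated IMR-90 library were used. Bowtie2, MACS2 and the builds hg38 and mm10 are named in the submitters' processing notes; versions, settings and any control library are not given in the sources used here. Contig names were those of GRCh38. The deposited values per peak are the authors' own: a fold ratio of the summit over local background, -log10 p, -log10 q (lowest just above 2 in both lists), and a score equal to 10 times -log10 q cut to a whole number. They ranked or described peaks within a list only. Reads per library are not given by these files. Fragments at a summit (k) and background (b) were solved from fold = (k + 1)/(b + 1) and the Poisson tail above k, which gave whole k for 100% of peaks within 0.001 of -log10 p. This form was chosen for agreement with the values and is not stated by the authors.

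Peaks on chromosomes 1 to 22 and X were used. Gene spans and the 250 bases before each start came from RefSeq GRCh38.p14, and strand and start sites from the promoter table. SLC7A11 has no entry there, so its minus strand is background knowledge and its start was taken as the higher-coordinate end of the span. A summit within 50 kb of a span was counted, so 1 peak can count for several genes. Python 3.11.15, numpy 2.4.6, pandas 2.3.3 and scipy 1.17.1 were used, and the steps were tested on simulated data. Intervals are 95% Wilson or exact Poisson intervals and cover counting error only. Each of the 10 genes is described with all its peaks. From the wider lists, genes with a peak in 1 library only and the 3 with the best untreated rank per list are named. One gene of the wider lists is not reported here. The members and lists were chosen with earlier results of these data known. Alternatives were other windows (10 and 100 kb), stricter lists, nearest-gene assignment and other overlap criteria.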

Additional observations from a re-analysis of the deposited data

How the results depend on the processing

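The etoposide list had fewer peaks near the 10 genes and a higher shared share than the untreated list under every alternative run for them. In the main setting the whole lists differ in the same direction, so there this is not particular to the 10 genes. They held 25739 etoposide and 32550 untreated peaks, of which 64.79% and 51.03% were shared. The setting of the 10000 strongest peaks cuts both lists to the same size, so these list sizes are no background for it. The number of untreated peaks, 32, became 16 within 10 kb, 50 within 100 kb and 12 among the 10000 strongest peaks of each list. The number of etoposide peaks, 18, became 31 within 100 kb and 9 among the 10000 strongest. With an overlap of at least 50% of both peaks the shared shares were 25.0% for untreated and 44.4% for etoposide, and among the 10000 strongest the untreated share was 66.7%. Shares around all genes under these criteria are not given here. The 49.2% and 65.6% given above hold for the main setting only and are no background for these values. Genes with an untreated peak numbered 5 of 10 among the 10000 strongest, where 39.4% of all genes had one. Within 10 kb, genes with an etoposide peak numbered 4 of 10 (38.9% of all genes) and genes with an untreated peak 7 of 10 (49.6%), and 5 of the 12 partners and regulators had an etoposide peak. Wider windows and stricter lists change these numbers by construction. Peak density stayed within its counting interval in the windows and the stricter list run for it. No paired analysis was possible because each condition has 1 library. The depth is unknown from these files, and a place missing from 1 list may hold signal below the threshold of the caller, which was not tested.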

Other observations

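Some peaks stood just outside the 50 kb limit. Between 50 and 60 kb there were 3 untreated and 3 etoposide summits near the 10 genes, and between 45 and 50 kb there were 2 in each list. HMOX1 had a shared place 52.1 kb away inside MCM5, a replication licensing gene, at chr22:35446114-35446488 with 10 untreated fragments and 13 etoposide fragments. NFE2L2 had an etoposide peak without counterpart at 58.0 kb, with 13 fragments.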
